A study of Mus musculus with 6 samples.

Results

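The genes described here encode integrin subunits that bind fibronectin, vitronectin, osteopontin or VCAM1, together with Vcam1 itself. They were taken by symbol from the gene count table: Itgav, Itgb3, Itgb5, Itgb8, Itga5, Itga8, Itga4, Itga9 and Vcam1, 9 genes of 56792 gene rows. Each symbol matched 1 row, and all 9 rows held enough counts to be tested. RNA sequencing was done on C2C12, a mouse myoblast line labelled wild type, whose cells leave the cell cycle and fuse into myotubes when serum is lowered. All libraries came from cells kept in medium with horse serum for differentiation for 4 days. The untreated group has 3 libraries without lenvatinib, and the lenvatinib group has 3 libraries with the drug at 1 µM. Lenvatinib is a small molecule that inhibits receptor tyrosine kinases of the VEGF and FGF receptor families, PDGFRα, KIT and RET. The labels give neither the solvent of the untreated cells nor the time at which the drug was added. They also do not say whether replicates were separate cultures, so p-values speak only of library-to-library spread, which may be technical.

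Integrins are heterodimers of an α and a β subunit that span the plasma membrane and join the extracellular matrix, or a ligand on a neighbouring cell, to the actin cytoskeleton. The αv subunit pairs with β1, β3, β5, β6 or β8, and α5 and α8 pair with β1. These receptors recognise the short Arg-Gly-Asp (RGD) sequence in fibronectin, vitronectin, osteopontin, nephronectin and the latency peptides of TGF-beta1 and TGF-beta3. The α4 and α9 subunits lack the collagen-binding inserted domain, pair mainly with β1, and bind VCAM1, osteopontin and, for α4, an alternatively spliced segment of fibronectin. VCAM1 is an immunoglobulin-type membrane protein known from activated endothelium. In muscle it is carried by satellite cells and myoblasts, where its binding to α4β1 on neighbouring cells is known from studies of myotube formation.

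With lenvatinib, transcripts of 5 of the 9 genes fell, 1 rose and 3 did not pass the test. Vcam1 and the genes of its α subunit receptors fell: Itga9 2.44-fold, Itga4 1.77-fold and Vcam1 1.66-fold. Among the partners of αv, Itgb3 fell 1.52-fold and Itgb5 fell 1.12-fold, while Itgb8 did not pass. The fibronectin receptor gene Itga5 rose 1.11-fold, and Itgav and Itga8 did not pass. A gene was called at an adjusted p under 0.05 in the edgeR quasi-likelihood test, with Benjamini-Hochberg adjustment over all 14989 rows tested. That rule called 28.2% of all rows, 14.9% as lower and 13.3% as higher with lenvatinib. The median log2 fold change was -0.17 over the 9 genes and 0.0027 over all rows. The libraries of the groups did not overlap in 6 of the 9 genes, with 5 lower and 1 higher with lenvatinib; over all rows the share without overlap was 40.1%, 20.5% lower and 19.6% higher.

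**Figure D1:**
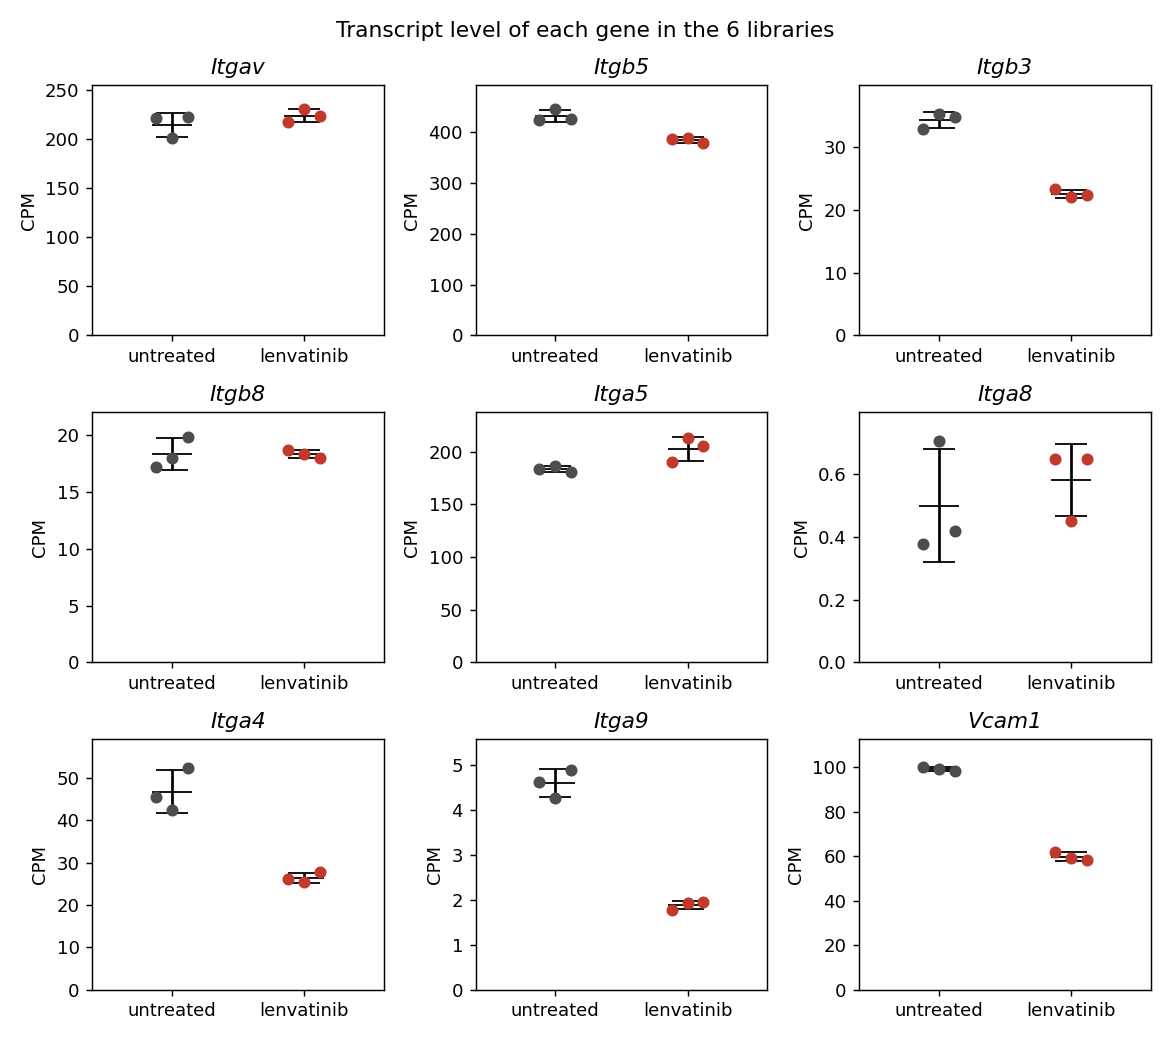
Level of each gene in CPM (counts per 1000000 library counts after scaling, linear axis from 0) in the 3 untreated and 3 lenvatinib libraries; points are libraries, the horizontal bar is the mean and the whiskers are the SD. The groups are apart in Itgb5, Itgb3, Itga5, Itga4, Itga9 and Vcam1, and overlap in Itgav, Itgb8 and Itga8.

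The promoters of 4 integrin genes are shown because these genes differed in their response: Itga4 and Itgb5 fell, Itga5 rose and Itgav did not pass. Each sequence is the stretch of 250 bases before the transcription start in RefSeq, build GRCm38.p6, written in the direction of the gene. Of the 9 genes, 7 had an entry in the RefSeq promoter table; Itgb3 and Vcam1 were the exceptions. The RefSeq start of Itga9 lies 105002 bases from the start of the gene in GENCODE M21, and that of Itgb8 526 bases, so neither is printed. Capitals mark each match to GGGCGG, the GC box bound by factors of the SP1 family, on either strand.
Itga4, chr2:79255176-79255425, plus strand: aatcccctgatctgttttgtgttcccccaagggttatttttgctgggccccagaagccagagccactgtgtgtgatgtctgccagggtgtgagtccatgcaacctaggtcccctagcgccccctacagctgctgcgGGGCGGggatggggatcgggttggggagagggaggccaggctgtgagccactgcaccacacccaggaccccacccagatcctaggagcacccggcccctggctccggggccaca
Itgb5, chr16:33829415-33829664, plus strand: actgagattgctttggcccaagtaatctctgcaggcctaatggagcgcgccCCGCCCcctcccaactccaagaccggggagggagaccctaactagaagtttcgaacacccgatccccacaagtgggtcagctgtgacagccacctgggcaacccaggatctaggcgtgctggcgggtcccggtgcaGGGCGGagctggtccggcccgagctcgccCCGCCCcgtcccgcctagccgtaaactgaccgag
Itga5, chr15:103366792-103367041, minus strand: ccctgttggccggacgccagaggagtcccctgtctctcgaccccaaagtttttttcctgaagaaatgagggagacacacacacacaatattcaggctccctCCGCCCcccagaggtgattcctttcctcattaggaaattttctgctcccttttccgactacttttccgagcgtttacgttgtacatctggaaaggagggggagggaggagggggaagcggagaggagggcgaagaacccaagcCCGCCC
Itgav, chr2:83724147-83724396, plus strand: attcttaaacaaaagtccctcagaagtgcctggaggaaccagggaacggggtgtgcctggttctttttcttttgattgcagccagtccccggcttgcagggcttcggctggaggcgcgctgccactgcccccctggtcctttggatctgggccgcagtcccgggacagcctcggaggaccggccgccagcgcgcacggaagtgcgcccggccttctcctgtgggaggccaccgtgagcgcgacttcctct

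The GC box was found once in the Itga4 promoter, 3 times in that of Itgb5, 2 times in that of Itga5 and not in that of Itgav. It was also not found in the windows of Itga8, Itga9 and Itgb8, which are not printed. Of the 32851 promoter stretches of this length in the table, 32.7% held it. Among these 4 genes, the motif was found in the gene that rose and in both genes that fell. Its part in the changes was not tested. GC content was 64% for Itga4, 65.2% for Itgb5, 55.6% for Itga5 and 64.4% for Itgav. A search on both strands for an NF-kB type motif (GGGNTTNCC), the AP-1 motif (TGANTCA) and the TEAD motif (CATTCC) found no match in any of the 7 windows. The windows of Itga9 and Itgb8 lie 105002 and 526 bases from the GENCODE start, and Vcam1 and Itgb3 had no window to search. These motifs occur in 3.99%, 6.75% and 12.6% of all promoter stretches. A match or its lack describes the letters in these windows only.

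Vcam1 encodes the cell surface ligand of α4β1 and α9β1. Its row spans positions 115903598 to 115923337 of chromosome 3 on the minus strand. Positions of gene rows are given as deposited and without a build: mm10 (GRCm38) is named in the submitters' processing notes, but 0 of the 9 rows had the start and end of their gene in GENCODE M21, an annotation of that build. They are therefore not on the scale of the promoter positions. Levels are in CPM, a gene's counts per 1000000 counts of its library after TMM scaling. The Vcam1 level was 100.1, 99.3 and 98.3 CPM in the untreated libraries and 61.9, 59.2 and 58.1 CPM in the lenvatinib libraries. The untreated libraries lay within 1.83 CPM of each other, and the lowest of them was 36.4 CPM above the highest lenvatinib library. The fall was from 99.2 ± 0.914 to 59.8 ± 1.96 CPM (mean ± SD, n = 3 per group), a log2 fold change of -0.73 ± 0.04 (SE; edgeR adjusted p = 8.79e-20). By p-value Vcam1 was at rank 61 among the tested rows. The change kept its direction and its call under all 15 alternatives, with log2 values from -0.76 to -0.71.

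Itga4 encodes the α subunit of the VCAM1 receptor α4β1, which is best known from leukocytes. Its row lies on chromosome 2, from 79085770 to 79163467 on the plus strand. The Itga4 level was 45.4, 42.5 and 52.4 CPM without lenvatinib and 26.1, 25.4 and 27.7 CPM with it. The untreated libraries differed among themselves by up to 9.86 CPM, but the lowest of them was still 14.8 CPM above the highest lenvatinib library. Itga4 fell from 46.7 ± 5.07 to 26.4 ± 1.18 CPM (-0.82 ± 0.06, edgeR adjusted p = 6.28e-10). The opposite-strand gene Cerkl overlaps its 3′ end and held 2 to 6 counts per library.

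Itga9, the α subunit of α9β1, binds VCAM1, tenascin-C and osteopontin. It lies on chromosome 9, from 118435758 to 118730071 on the plus strand. Untreated libraries held 123, 109 and 141 counts of Itga9 and lenvatinib libraries 44, 47 and 63, which is 4.62, 4.27 and 4.898 CPM against 1.78, 1.92 and 1.94 CPM. The lowest untreated library was 2.32 CPM above the highest lenvatinib library. Itga9 fell from 4.596 ± 0.316 to 1.88 ± 0.0913 CPM (-1.29 ± 0.16, edgeR adjusted p = 1.39e-08), the largest log2 change of the 9 genes and the least precise of those that passed. Its mean was under 5 CPM in both groups, so a filter at 5 CPM leaves it untested. On the opposite strand, the row of Gm10157 lies inside the Itga9 span and that of Gm2415 overlaps its 3′ end. Gm10157 held 224 to 368 counts per library, more than Itga9 itself, at 10.4 ± 0.725 and 10.3 ± 1.11 CPM (edgeR adjusted p = 0.985). Strand use in the counting was not given in the sources used here, so reads of Itga9 and of these rows cannot be told apart where they overlap.

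Vcam1, Itga4 and Itga9 also mark other cells, and markers of those cells were read as a list. For comparison with the counts below, 14.9% of all rows were called lower and 13.3% higher. Of 10 macrophage and leukocyte markers, 6 were tested, 3 fell and none rose. The 3 were Cd53, a leukocyte tetraspanin gene (7.64 ± 1.27 to 0.388 ± 0.0575 CPM, -4.27 ± 0.21), Itgb2 (2.97 ± 0.607 to 0.731 ± 0.103 CPM, -2.01 ± 0.23) and Cd14, a lipopolysaccharide co-receptor gene (5.11 ± 0.09 to 3.52 ± 0.242 CPM, -0.54 ± 0.13). The other tested markers, Lyz2, Cd68 and Itgam, did not pass, at log2 fold changes of 0.47 ± 0.28, 0.20 ± 0.44 and 0.10 ± 0.48. The summed level of all 10 markers was 17.3 to 18.7 CPM in the untreated and 7.07 to 7.4 CPM in the lenvatinib libraries. The pan-leukocyte gene Ptprc was at a mean of 0.0251 CPM without lenvatinib and at 0 with it, and the macrophage genes Adgre1 and Tyrobp had 0 counts in all libraries. Of 8 endothelial markers, 2 were tested and neither passed, and their sum stayed between 2.15 and 2.63 CPM in all libraries. The list of reserve and satellite cell markers, which is closer to Vcam1 in muscle, had 2 of 6 tested genes higher (Myf5 by 0.57 and Hey1 by 0.75 on the log2 scale) and 2 lower (Notch3, -0.71, and Spry1, -0.53). Its sum was 199.9 to 205 CPM untreated and 148 to 158 CPM with lenvatinib. Most of that sum was Spry1 (90.4 to 62.5 CPM) and Notch3 (75.8 to 46.3 CPM), the 2 genes that fell. The median log2 fold change of the 6 tested genes was 0.12. Pax7, which defines satellite cells, was at 10.9 ± 0.364 and 11.6 ± 0.407 CPM (edgeR adjusted p = 0.48). Of 6 smooth muscle and pericyte markers, 4 were tested and 3 rose: Tagln (140.3 ± 4.81 to 371 ± 8.18 CPM, 1.40 ± 0.03), Acta2 (2117 ± 77.6 to 3204 ± 43.1 CPM, 0.60 ± 0.02) and Cnn1 (2.17 ± 0.573 to 5.53 ± 0.476 CPM, 1.35 ± 0.16). Their list summed to 2201 to 2350 CPM untreated and 3569 to 3666 CPM with lenvatinib. The remaining tested marker, the pericyte gene Cspg4, did not pass, at 34.3 ± 1.97 CPM untreated and 35.6 ± 2.61 CPM with lenvatinib. Myh11, which defines smooth muscle, and the pericyte gene Rgs5 had at most 4 counts in any library. Of 7 fibroblast markers, 6 were tested, Pdgfrb (0.16 ± 0.03) and Col1a1 (0.35 ± 0.06) rose, Pdgfra fell (-0.41 ± 0.08) and 3 did not pass, with sums of 932 to 970.2 CPM untreated and 1056 to 1148 CPM with lenvatinib. The part of such cells in the changes of the 9 genes was not tested. In bulk RNA, fewer cells that carry a transcript and less transcript per cell cannot be told apart. As a check of the labelled cell type, all 9 muscle markers had enough counts to be tested, 5 rose, 2 fell and 2 did not pass. Myog rose from 855 ± 10.2 to 1035 ± 14.1 CPM, Myod1, Mymk and Ckm rose by 0.24, 0.17 and 0.15 on the log2 scale, and Des (-0.19) and Actn2 (-0.15) fell. The sum of the list was 16500 to 17076 CPM untreated and 17264 to 17328 CPM with lenvatinib.

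Itgav encodes αv, the common α subunit of the vitronectin receptors. Its row runs from 83554741 to 83637260 on the plus strand of chromosome 2. The Itgav level was 220.6, 200.4 and 222 CPM in the untreated and 217, 230.1 and 223 CPM in the lenvatinib libraries. The groups overlapped, with the lowest value in the second untreated library and the highest in the second lenvatinib library. The log2 fold change was 0.06 ± 0.03 with a 95% interval of -0.01 to 0.13 (edgeR adjusted p = 0.216).

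Itgb3 encodes β3, which with αv forms the classical vitronectin and osteopontin receptor. It lies on chromosome 11, from 104498826 to 104561302 on the plus strand. Its level was 32.9, 35.3 and 34.7 CPM without lenvatinib and 23.3, 22.1 and 22.4 CPM with it. The lowest untreated library was 9.59 CPM above the highest lenvatinib library, and neither group spread over more than 2.4 CPM. Itgb3 fell from 34.3 ± 1.26 to 22.6 ± 0.638 CPM (-0.60 ± 0.06, edgeR adjusted p = 1.58e-11).

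Itgb5 encodes β5, the partner of αv in a vitronectin receptor that also takes part in TGF-beta activation. Its row is on chromosome 16, from 33650035 to 33769708 on the plus strand. The Itgb5 level was 424, 445 and 427 CPM untreated and 387, 388 and 378 CPM with lenvatinib. The lowest untreated library was 36.1 CPM above the highest lenvatinib library, a small margin relative to the level. Itgb5 fell from 432 ± 11.5 to 385 ± 5.44 CPM (-0.17 ± 0.03, edgeR adjusted p = 4.77e-06), the smallest change of the 5 genes that fell.

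Itgb8 encodes β8, which with αv binds latent TGF-beta and differs from β3 and β5 in its divergent cytoplasmic tail. It is on chromosome 12, from 119121757 to 119202537 on the minus strand. Its level was 17.1, 17.9 and 19.8 CPM in the untreated and 18.7, 18.3 and 17.97 CPM in the lenvatinib libraries. The lenvatinib values lay inside the range of the untreated ones, and the means were 18.3 ± 1.39 and 18.3 ± 0.343 CPM. The log2 fold change was -0.0033 ± 0.07 with a 95% interval of -0.14 to 0.14 (edgeR adjusted p = 0.981), and its sign turned under 4 alternatives.

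Itga5 encodes the α subunit of α5β1, the main fibronectin receptor of fibroblasts and myoblasts. It lies on chromosome 15, from 103252713 to 103275190 on the minus strand. The Itga5 level was 183, 187 and 180.4 CPM without lenvatinib and 190.2, 213 and 205 CPM with it. The groups did not overlap, although the lowest lenvatinib library was only 3.67 CPM above the highest untreated one. Itga5 rose from 183 ± 3.04 to 203 ± 11.6 CPM (0.15 ± 0.03, edgeR adjusted p = 0.000786), and it was the one gene of the 9 to be called higher.

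Itga8 encodes the α subunit of α8β1, a receptor of nephronectin and fibronectin known from kidney and smooth muscle. Its row is on chromosome 2, from 12111443 to 12306733 on the minus strand. Untreated libraries held only 10, 18 and 12 counts of Itga8 and lenvatinib libraries 16, 11 and 21, where 3 counts correspond to 0.0926 to 0.123 CPM. The groups overlapped. The log2 fold change of 0.24 ± 0.37 had a 95% interval of -0.51 to 0.99 (edgeR adjusted p = 0.682). At this depth the counts are compatible with any change within that interval.

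**Figure D2:**
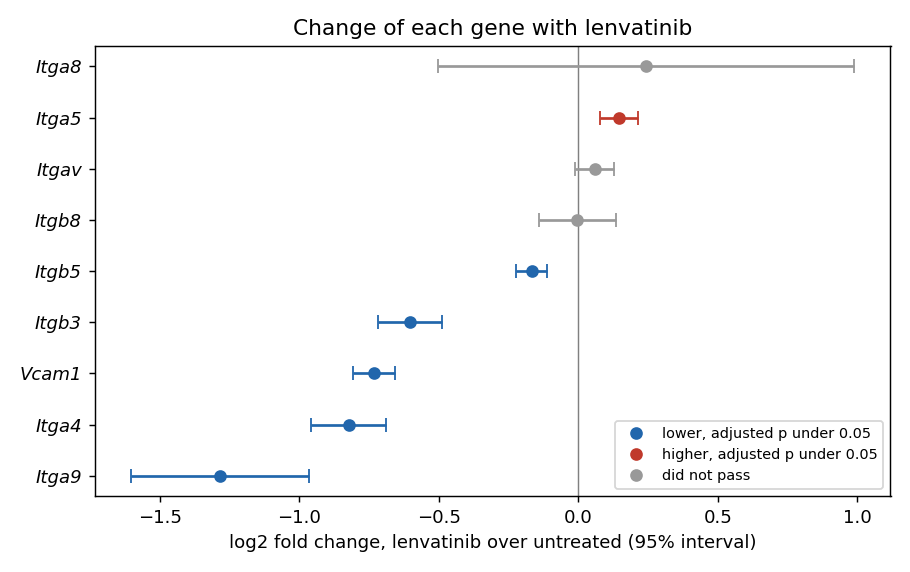
Log2 fold change of each gene, lenvatinib over untreated, with its 95% interval from the edgeR quasi-likelihood fit. Itga9, Itga4, Vcam1, Itgb3 and Itgb5 lie below 0 and Itga5 above it, while the intervals of Itgav, Itgb8 and Itga8 cross 0.

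Levels of different genes were compared per length, as CPM per kilobase of the deposited feature length. In the untreated libraries the order from the highest was Itgb5 (122 ± 3.24), Itga5 (36.6 ± 0.608), Itgav (19.1 ± 1.08), Vcam1 (11 ± 0.102), Itgb3 (5.597 ± 0.206), Itga4 (3.33 ± 0.361), Itgb8 (1.65 ± 0.125), Itga9 (0.584 ± 0.0401) and Itga8 (0.0677 ± 0.0243). No libraries of neighbours in this order overlapped. The lenvatinib libraries gave the same order, but Itga4 at 1.88 ± 0.0838 came close to Itgb8 at 1.65 ± 0.031 CPM per kilobase. Itgb1, the β1 subunit that serves α4, α5, α8, α9 and αv, stood above all of them at 226 ± 4.82 and 233 ± 4.51 CPM per kilobase. Itgb1 itself was at 1350 ± 28.8 CPM untreated and 1387 ± 26.9 CPM with lenvatinib and did not pass the test (0.04 ± 0.02, edgeR adjusted p = 0.266).

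The choice of length matters for these levels but not for fold changes. Per kilobase of the longest coding transcript in GENCODE M21, untreated Vcam1 was at 28.6 ± 0.264 and Itgav at 30.4 ± 1.73, and their libraries overlapped. The feature length of Vcam1 is 8992 bases against 3469 bases of that transcript, a wider gap than for the other genes. With lenvatinib the same measure gave 17.2 ± 0.565 for Vcam1 and 31.7 ± 0.92 for Itgav, and they no longer overlapped.

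**Figure D3:**
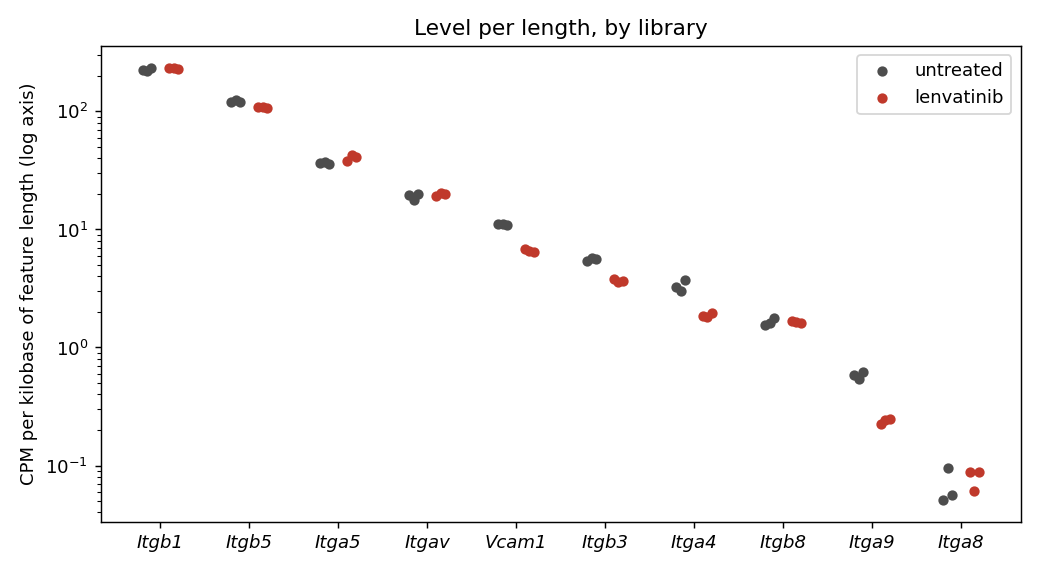
CPM per kilobase of feature length (log axis) for Itgb1 and the 9 genes, ordered by the untreated mean; points are the 3 libraries of each group. Levels run from 226 for Itgb1 to 0.0677 for Itga8 in untreated cells, and Vcam1, Itgb3, Itga4 and Itga9 sit lower with lenvatinib.

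Shares of the subunit pools follow from the levels per kilobase of feature length. Of the 5 α genes together, Itga5 made up 61.4 ± 1.83% untreated and 64.7 ± 0.743% with lenvatinib (n = 3 per group). Itgav held 32 ± 1.39% and 31.8 ± 0.594%. The share of Itga4 went from 5.57 ± 0.547% to 3.01 ± 0.201% and that of Itga9 from 0.977 ± 0.0551% to 0.382 ± 0.00849%, with no overlap between groups in either. Of the β genes Itgb3, Itgb5 and Itgb8, Itgb5 made up 94.4 ± 0.199% untreated and 95.3 ± 0.103% with lenvatinib. Itgb3 went from 4.34 ± 0.0996% to 3.24 ± 0.0888% and Itgb8 from 1.28 ± 0.105% to 1.46 ± 0.0152%. Itgb1 and Itgb6, which also encode partners of αv, were left out of this pool. A share depends on the other genes of its pool, so that of Itgb5 was higher although Itgb5 itself fell. All the values are shares of transcripts, which say nothing of the receptors at the surface, and they were described without a test.

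The other integrin genes were read as a list of 18, of which 13 were tested. Of these, 4 rose, 2 fell and 7 did not pass, with a median log2 fold change of 0.04. Among all rows, 13.3% were called higher and 14.9% lower. The genes that rose included α subunits of collagen receptors, Itga1 (2.14 ± 0.13) and Itga11 (1.19 ± 0.05), and the laminin receptor gene Itga6 (0.27 ± 0.03). Itgb6, whose product is another partner of αv, rose from 43.5 ± 1.21 to 53.1 ± 2.36 CPM (0.29 ± 0.05, edgeR adjusted p = 2.51e-06), unlike Itgb3 and Itgb5, which fell. The genes that fell were the collagen receptor gene Itga10 (-0.77 ± 0.08) and Itgb2, the β subunit of leukocyte integrins (-2.01 ± 0.23). Itgb7, the other β partner of α4, was at 0.323 ± 0.0602 and 0.351 ± 0.17 CPM and did not pass.

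Of 28 genes listed as matrix ligands of these receptors, 22 were tested, 10 rose, 5 fell and 7 did not pass. The median was 0.08, and over all rows 13.3% were called higher and 14.9% lower. Spp1, which encodes osteopontin, a ligand of αvβ3, α4β1 and α9β1, had by far the largest fall of the list. Its level was 1546, 1564 and 1520 CPM untreated and 427, 402 and 399 CPM with lenvatinib (-1.92 ± 0.03). Edil3, which encodes an RGD protein bound by αvβ3 and αvβ5, went from 50.4, 49.7 and 53.7 CPM to 29.5, 27.96 and 29.2 CPM (-0.83 ± 0.05). Thbs1 and Tgfb1 fell by 0.31 and 0.16 on the log2 scale. In contrast, the elastic fiber ligand Fbln5 rose by 1.09, Ccn1, a matricellular ligand of αv integrins, by 0.87, Thbs2 by 0.63 and Tgfb2 by 0.52. Tgfb2 is listed as a TGF-beta gene, but the RGD sequence is known from the latency peptides of TGF-beta1 and TGF-beta3. The other listed genes that rose were chosen after their values were seen. Of these, Ccn2 rose by 1.25, the largest rise of the list, Postn by 0.60 and Tnc, the tenascin-C gene, by 0.51. Svep1, Ltbp1 and Tgfb3 rose by 0.43, 0.34 and 0.30.

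Fn1, which encodes fibronectin, the ligand of α5β1 and α4β1, was outside the naming rule and was chosen after its values were seen. It was at 5955, 5438 and 6408 CPM untreated and at 2955, 3679 and 3765 CPM with lenvatinib. All untreated libraries were above all lenvatinib libraries, but the spread within each group was wide for a gene of this level. Fn1 fell by 0.78 ± 0.13 on the log2 scale (edgeR adjusted p = 0.0143). Its adjusted p was 0.057 without the first untreated library and 0.0545 without the third. Further ligands, also chosen after their values were seen, were the α8β1 ligand Npnt at 647 ± 11.7 and 628 ± 20.6 CPM (edgeR adjusted p = 0.242) and vitronectin, Vtn. Vtn had 0 counts in the untreated libraries and 3, 1 and 1 counts with lenvatinib, at or under the floor of 3 counts per library, and was not tested.

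Of 11 immunoglobulin-type integrin ligands other than Vcam1, 4 had enough counts for a test, 3 rose and none fell, with a median of 0.24. Calls over all rows were 13.3% higher and 14.9% lower. Jam2, whose product can engage α4β1 and which is a surface protein of myoblasts, rose from 145 ± 0.788 to 178 ± 1.16 CPM (0.30 ± 0.03). L1cam, an RGD-bearing neural adhesion molecule, rose by 0.68, and Jam3 by 0.17 (edgeR adjusted p = 0.0368). The call of Jam3 was lost with DESeq2 (adjusted p = 0.153), with no filter on low counts (0.051) and without the first, the second or the third untreated library (adjusted p = 0.116, 0.0694 and 0.05003) or the second or the third lenvatinib library (0.144 and 0.0696). Icam1 and Madcam1, the ligands of leukocyte integrins in vessels, had no more than 1 count in any library.

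Of 42 genes for proteins that bind integrin tails or build focal adhesions, 38 were tested, 11 rose, 8 fell and 19 did not pass. Their median was 0.03, and over all rows 13.3% were called higher and 14.9% lower. The integrin activators talin and kindlin, chosen after their values were seen, did not pass: Tln1 was at 850 ± 9.65 and 848 ± 48.6 CPM and Fermt2 at 208 ± 6.43 and 209.5 ± 1.29 CPM (edgeR adjusted p = 0.957 and 0.84). Tln2, the talin of striated muscle, rose by 0.34, the adaptor gene Pdlim7 by 0.31, Git1 by 0.22 and Lims2 by 0.85 on the log2 scale. Dab2, an endocytic adaptor that binds β tails, fell from 67 ± 3.87 to 43.9 ± 2.96 CPM (-0.61 ± 0.05). The tensin genes Tns2 and Tns3 fell by 0.40 and 0.21, and Apbb1ip, which encodes the Rap1 effector RIAM, by 0.39.

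Among 14 co-receptor genes, 12 were tested, 4 rose, 3 fell and 5 did not pass, with a median of -0.0028. In all rows, 13.3% were called higher and 14.9% lower. Caveolin-1, Cav1, rose by 0.29, the tetraspanin genes Cd82 and Cd81 by 0.20 and 0.10, and the fibronectin co-receptor Sdc4 by 0.18 on the log2 scale. The tetraspanin gene Cd9 fell by 0.31, Sdc1 by 0.24 and the urokinase receptor gene Plaur by 0.32. Plaur, at 6.27 ± 0.233 and 5.003 ± 0.463 CPM, had an adjusted p of 0.0397 with edgeR, of 0.0687 in that test with no filter on low counts and of 0.172 with DESeq2. Its adjusted p was 0.0607, 0.119 and 0.06995 without the first, the second and the third untreated library, and 0.0858 and 0.167 without the first and second lenvatinib library. Cd151, which most adherent cells express, had only 5 to 20 counts per library, so a row near 0 in this table is not read as an absent transcript.

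Vcam1 is a known target of NF-kB downstream of tumor necrosis factor and interleukin-1 receptors. The list read here also holds other cytokine receptors and factors known to induce Vcam1, such as the interleukin-4 receptor. Of its 21 genes, 20 were tested, 9 fell, 1 rose and 10 did not pass. The median was -0.13, and over all rows the test called 14.9% lower and 13.3% higher. Il4ra, the interleukin-4 receptor chain, fell from 67.6 ± 1.45 to 47.95 ± 1.67 CPM (-0.50 ± 0.04). The NF-kB feedback inhibitor gene Tnfaip3 fell by 0.34, and the receptor genes Il1r1 and Il13ra1 by 0.27 and 0.30. The NF-kB subunit genes Nfkb2 and Rela, chosen after their values were seen, fell by 0.15 and 0.12 (edgeR adjusted p = 0.00082 and 0.0111). The subunit genes Nfkb1 (-0.05) and Relb (-0.14) did not pass (edgeR adjusted p = 0.262 and 0.113). What part the listed genes had in the fall of Vcam1 was not tested. The gene that rose was the subunit gene Rel, by 0.23 (edgeR adjusted p = 0.0216). That call was lost with DESeq2 (adjusted p = 0.106), without the first or second untreated library (0.0846 and 0.0594) and without the first or second lenvatinib library (0.0538 and 0.0861).

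**Figure D4:**
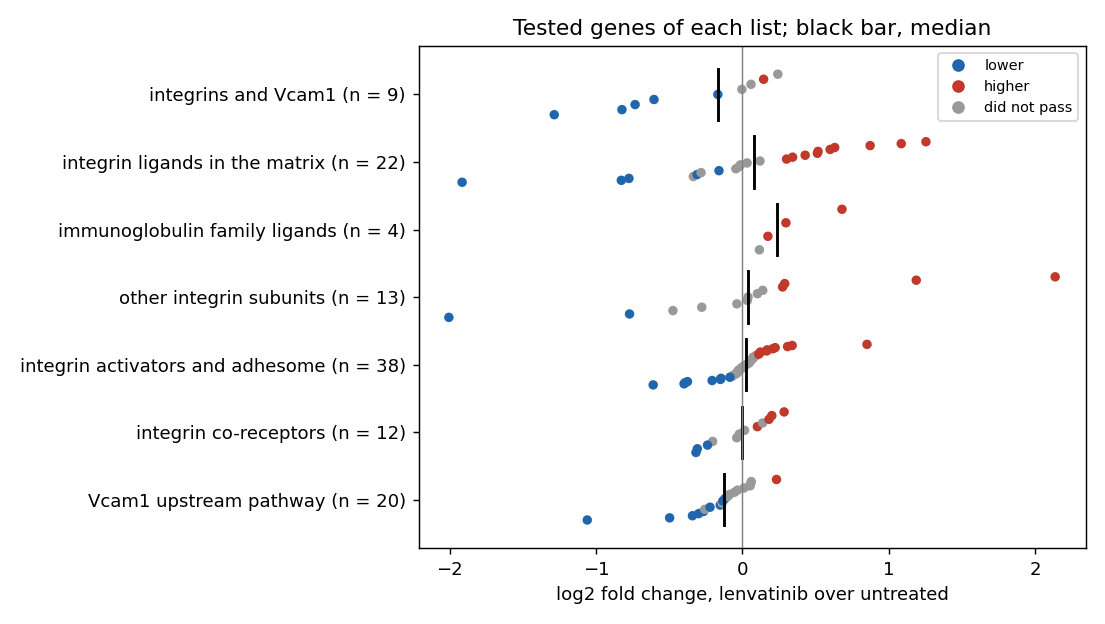
Log2 fold change, lenvatinib over untreated, of each tested gene in the 9-gene group and in 6 lists around it; points are genes (vertical spread only separates them), blue and red passed an adjusted p of 0.05, and the black bar is the median. The median lies at -0.17 for the 9 genes, at -0.13 for genes upstream of Vcam1 and at 0.24 for the immunoglobulin-type ligands.

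Genes with the most similar profile were sought for Vcam1, Itga4, Itga5 and Itgav among 9838 genes with a mean of at least 5 CPM. Likeness was the root mean square difference of centred log2 CPM over the 6 libraries, where a smaller value is closer, and it follows mainly the difference between the groups. Closest to Vcam1 were Colec12 (0.0379), Frrs1 (0.0384) and Notch3 (0.0464). Colec12 encodes a scavenger receptor and went from 396 ± 6.85 to 249 ± 11.4 CPM, and Notch3 went from 75.8 ± 2.14 to 46.3 ± 0.908 CPM. Closest to Itga4 was Edil3 (0.062), followed by Rundc3a (0.0723) and Isx (0.0741). Closest to Itga5 were Smim11 (0.0124), Fgf21 (0.0141) and Lrp4 (0.0172), and closest to Itgav were Mrpl44 (0.0147), Zfp36l1 (0.015) and Pcm1 (0.0168). Fgf21 rose by 0.16 on the log2 scale (edgeR adjusted p = 0.00374), but not without the second lenvatinib library (adjusted p = 0.0542). Pcm1 did not pass (adjusted p = 0.0949) but did with no filter on low counts (adjusted p = 0.0326) and without the third untreated library (adjusted p = 0.0162).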

How the data were processed

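The authors deposited whole-number read counts per gene row, not normalized, for 3 untreated and 3 lenvatinib libraries of C2C12 cells. Hisat2 2.0.1 aligned the reads, per the labels' protocols. HTSeq 0.6.1 and build mm10 are named per the submitters' processing notes. Strand use and annotation were not given in the sources used here. The deposited feature length in bases (unit other) served for levels per kilobase. Library totals were 24566768 to 32406563 counts. Floors of 3 counts hold for counting error alone, because without molecular identifiers a read is not a separate molecule; the 95% intervals come from the edgeR fit and include the spread between libraries.

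Counts were tested with edgeR 4.0.16 (TMM factors, filterByExpr with a minimum count of 10 and a minimum total of 15, robust glmQLFit, glmQLFTest) in R 4.3.3. The procedure was also run on simulated data. These had the same spread for every gene and few changed genes, so they were simpler than the deposited counts. CPM and fold changes were computed from the deposited counts. The chi-square per degree of freedom was 2.78 to 5.6 between replicates, above sampling noise. Alternatives were other scalings, filters and a threshold of 0.01, DESeq2 1.42.0, limma-voom (limma 3.58.1), a replicate block and leaving out each library; tests on rows with an Ensembl identifier and levels by transcript length were added after seeing the data. The 9 genes and the lists were chosen with earlier results of these data known. The text names the 9 genes, Itgb1, and from each list, marker lists included, up to 4 passing genes per direction with the smallest p, or all where 5 or fewer passed. Other genes named (such as Itgb7, Pax7, Fn1, Npnt, Tln1, Cd151, genes near 0 and genes overlapping a row) were chosen after their values were seen, apart from those nearest in likeness. Likeness used log2 CPM with a prior count of 2. Promoters came from RefSeq (GRCm38.p6).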

Additional observations from a re-analysis of the deposited data

How the results depend on the processing

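The count of called genes among the 9 was 5 or 6 under all 16 alternatives; it was 5 with a filter of 5 CPM, which removes Itga9 from the test. Itga4, Itga5, Itgb3, Itgb5, Vcam1 and, where tested, Itga9 kept direction and call under every alternative run on them. All genes called numbered 3039 with DESeq2 and 4229 in the reported fit. The call of Itgb8 never passed, and its log2 fold change was 0.0024 with no filter, 0.0038 with upper quartile factors and from -0.0484 to 0.0611 when a library was left out (above 0 without the third untreated library, and at 0.0109 without the third lenvatinib library). That of Tln1 was 0.0026 with no filter, 0.0035 with upper quartile factors and from -0.0274 to 0.0448 when a library was left out (above 0 without the third untreated or the first lenvatinib library), and that of Fermt2 was from -0.0093, without the first untreated library, to 0.0351. That of Itgb7 was from -0.12, without the second lenvatinib library, to 0.45. Of other integrin genes 1 was called lower with a filter of 5 CPM, which leaves fewer genes to test. Of the genes upstream of Vcam1, 0 were called higher with DESeq2 and at an adjusted p under 0.01, and 0 to 1 when a library was left out; the cause was not tested. Same-numbered libraries of the groups did not deviate together (r = 0.02, -0.08 and -0.01 across 9999 genes, which are not independent replicates), and 1 of 6 libraries correlated best with its own number. With the replicate number as a block, 4134 genes and 6 of the 9 were called, and the adjusted p of Fn1 was 0.0666. Depth limits Itga8, with 10 to 21 counts per library, and to a lesser degree Itga9, with 44 to 141.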
